A study of Homo sapiens with 6 samples.

Results

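The NF-kB system was described here through 10 genes out of the 33707 in the expression table: the 5 subunits (NFKB1, NFKB2, RELA, RELB, REL), the 3 cytoplasmic inhibitors (NFKBIA, NFKBIB, NFKBIE), the feedback gene TNFAIP3 and the kinase gene IKBKB. They were picked by gene symbol, as genes of this pathway and not by a threshold on measured values. The choice was made with earlier results of these data known. All 10 were found in the table and all 10 exceeded the level needed for a test. By the titles the cells were Huh7, an established human hepatocellular carcinoma line. The genotype tag is WT for the control libraries and names the mimics for the others. One group of 3 libraries came from cells transfected with miR-361-3p mimics, synthetic RNA that adds miR-361-3p activity, and the other 3 libraries came from cells given the negative control, mimics-NC. Both groups were taken at day 2, and a lipid reagent and mimics from the same supplier were used for both. By their titles all 6 libraries come from this tumour line, and no liver tissue was measured.

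NF-kB transcription factors are dimers of Rel-homology proteins. In resting cells the IkB proteins hold these dimers in the cytoplasm. Signals from TNF, interleukin-1 and Toll-like receptors activate the IkB kinase complex, which marks the inhibitors for destruction and frees the dimers to enter the nucleus. There they switch on chemokine, adhesion and survival genes together with their own inhibitors, which closes a feedback loop, and in hepatocytes the pathway is known for the response to inflammation and for protection against TNF-induced death.

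The libraries held 35020139, 44774192 and 44710704 assigned reads for the miR-361-3p mimics and 42196419, 52977132 and 47616126 for mimics-NC. Levels are given in RPKM, which scales reads to a gene length of 1 kilobase and a library of 1000000 assigned reads. The length deposited for a gene can exceed that of a single transcript. For IKBKB it is 10239 bases, against 2271 coding and 1481 3′ UTR bases in the transcript searched for sites below. For NFKBIE it is 2581, against 1503 and 1053 bases. Ranks and shares across genes therefore depend on the annotated lengths. The library of mimics replicate 3 carries the cell line tag Huh8 although its title says Huh7, and wild type Huh7 cells are named in the treatment field of the mimics-NC libraries, whose titles say mimics-NC. Nothing in the labels says that the replicates were separate cultures, so the spread behind the p-values may be technical. Of 18 hepatocyte or hepatoma markers 17 were tested, and by limma 0 changed at an adjusted p under 0.05, 3 had an unadjusted p under 0.05 and 3 changed with voom. Among all 13158 tested genes the matching counts were 2835, 4721 and 3821. The summed level of these markers was 4492 to 4642 RPKM in the mimics libraries and 4713 to 4858 RPKM in the mimics-NC libraries. TTR, a defining hepatocyte gene, lay under 1 RPKM, and the hepatoma marker AFP averaged 1.21 RPKM. The name of the cell line rests on the labels, and its identity was not tested. Of the 9 immune markers only CD68 and LYZ were above 1 RPKM. The summed immune level was 45.4 to 51.4 RPKM in mimics libraries and 44.8 to 48.8 RPKM in mimics-NC libraries. The 4 cholangiocyte markers summed to 1.55 to 1.65 RPKM in mimics libraries and 1.09 to 1.43 RPKM in mimics-NC libraries, and the 7 fibroblast markers to 1.87 to 2.43 RPKM in mimics libraries and 2.38 to 4.13 RPKM in mimics-NC libraries. Of the endothelial markers PECAM1 alone was above 1 RPKM. The part of these differences in the results below was not tested.

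NFKBIE, which encodes the inhibitor IkB epsilon, was the only member whose transcript changed: it fell to 69.5% of its mimics-NC mean. The 5 subunits, NFKBIA, NFKBIB, TNFAIP3 and IKBKB did not pass the test, and the widest 95% interval among the subunits, that of RELB, ran from -0.20 to 0.07 on the log2 scale. A gene is said here to rise or fall where limma's moderated test on log2(RPKM + 0.5), two-sided and with Benjamini-Hochberg adjustment over 13158 genes (those averaging 1 RPKM or more), gave an adjusted p under 0.05. By that rule 21.5% of all tested genes changed, 11.7% rose and 9.85% fell. Among the members 1 of 10 fell and 0 rose, also 0 with voom, which is 10% changed. The values of the groups did not overlap for 4 of the 10 members, against 41.4% of all tested genes. The median log2 fold change of the members was -0.07 and that of all tested genes 0.01. At an unadjusted p under 0.05, NFKBIE, NFKB2 and NFKBIB passed, which is 3 of the 10 members, against 4721 of the 13158 tested genes. In bulk RNA, a smaller share of cells with a transcript and less of it per cell cannot be told apart.

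**Figure D1:**
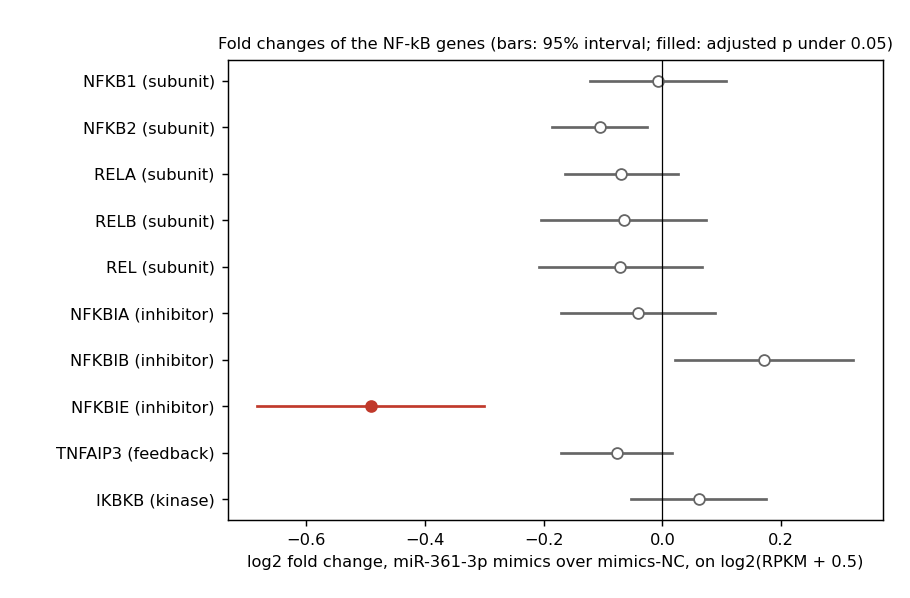
Log2 fold change of each member, miR-361-3p mimics over mimics-NC, on log2(RPKM + 0.5), with its 95% interval from 3 libraries per group; the filled point has an adjusted p under 0.05. NFKBIE lies at -0.49, while the other 9 lie between -0.11 for NFKB2 and 0.17 for NFKBIB.

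A microRNA pairs with its targets mainly through its seed, bases 2 to 8 from the 5′ end. The mature miR-361-3p of RefSeq, encoded on the X chromosome (chrX:85903641-85903663, minus strand, GRCh38.p14), is shown because the sites below derive from it, with the seed in capitals; the sequence of the transfected mimic is not given in the sources used here.
hsa-miR-361-3p: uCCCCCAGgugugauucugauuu

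The complement of the seed is CTGGGGG (a 7mer-m8 site), CTGGGGGA with an A after it (8mer) and TGGGGGA without the match to base 8 (7mer-A1). In the 3′ UTR of the GENCODE 29 transcript used for each member, 3 of 10 members held such a site, against 23.7% of the 9491 tested genes with a 3′ UTR. The sites are shown on the transcript strand with their flanks, since NFKBIE is among these 3, and capitals mark the letters matched. The NFKBIE site starts at base 807 of a 3′ UTR of 1053 bases (chr6:44258406-44258412), that of TNFAIP3 at base 1397 of 1992 (chr6:137882716-137882722) and that of RELA, a 7mer-A1, at base 662 of 782 (chr11:65653710-65653716).
NFKBIE 7mer-m8: caccactgccCTGGGGGttgccatctg
TNFAIP3 7mer-m8: acactgtgtcCTGGGGGggctgggaag
RELA 7mer-A1: ttgttaagagTGGGGGAgagcaggctg

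NFKBIE and TNFAIP3 thus hold the same 7 letters, and their log2 fold changes were -0.49 and -0.08. A match of letters describes the transcript and does not show that the microRNA binds there. Of all tested genes with a 3′ UTR, 11.5% held a 7mer-m8 site, 12.4% a 7mer-A1 site and 5.25% an 8mer site, and no member held an 8mer in its 3′ UTR. NFKBIB, whose 3′ UTR in the transcript used has 54 bases, held an 8mer in its coding sequence, shown because this member had the highest log2 fold change of the 10. It starts at base 310 of 1071 coding bases (chr19:38905226-38905233).
NFKBIB coding 8mer: ggcagccatcCTGGGGGAgacatccacg

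Coding 7mer-m8 matches were also found in NFKB1, NFKB2, NFKBIE, RELA, RELB and TNFAIP3, and NFKBIA held no match in either region. IKBKB, REL, RELB and TNFAIP3 held the shorter 6mer TGGGGG in the 3′ UTR.

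Among the subunits, NFKB2 encodes p100, which holds RelB in the cytoplasm until it is processed to p52 in the non-canonical pathway (chromosome 10, 102394110 to 102402529, GRCh38, plus strand). It had 51.3, 53.0 and 51.6 RPKM in mimics libraries, against 56.6, 56.9 and 54.4 RPKM in mimics-NC libraries, resting on 8050 to 13525 reads per library. All 3 mimics libraries lay below all 3 mimics-NC libraries, and the log2 fold change was -0.11 (SE 0.03, 95% interval -0.19 to -0.03). The adjusted p of limma was 0.0659, so the difference did not pass. It passed after median-of-ratios scaling (adjusted p = 0.041 from limma) and with voom of limma on reads recovered from the RPKM values (adjusted p = 0.0475), and in none of the 6 fits that left out 1 library (adjusted p 0.0788 to 0.177).

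NFKB1 encodes p105, the precursor of p50, the usual partner of RelA (chromosome 4, 102501329 to 102617302, plus strand). Its level was 5.49, 5.48 and 5.78 RPKM in mimics libraries and 5.89, 5.38 and 5.58 RPKM in mimics-NC libraries. The groups overlapped throughout, with means of 5.58 ± 0.172 and 5.62 ± 0.255 RPKM (mimics and mimics-NC, SD, n = 3 each) and a 95% interval of the log2 fold change from -0.12 to 0.11.

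RELA encodes p65, the main transactivating subunit of the canonical pathway (chromosome 11, 65653596 to 65663094, minus strand). Its level was 11.9, 11.6 and 12.5 RPKM in mimics libraries and 12.4, 12.9 and 12.6 RPKM in mimics-NC libraries. Mimics replicate 3 lay among the mimics-NC values and the other 2 mimics libraries below them, with a log2 fold change of -0.07 (95% interval -0.16 to 0.03, limma adjusted p = 0.264).

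RELB, the transactivating partner of p52 (chromosome 19, 45001430 to 45038198, plus strand), had 7.48, 8.24 and 7.30 RPKM in mimics libraries and 8.20, 8.35 and 7.60 RPKM in mimics-NC libraries. The groups overlapped, since mimics replicate 2 exceeded 2 of the 3 mimics-NC libraries. The log2 fold change was -0.07, with a 95% interval of -0.20 to 0.07 and a limma adjusted p of 0.469.

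REL encodes c-Rel, a subunit best known from lymphocytes (chromosome 2, 60881521 to 60931610, plus strand). It had the lowest level of the 10, with 2.85, 2.96 and 3.20 RPKM in mimics libraries and 3.06, 3.18 and 3.30 RPKM in mimics-NC libraries. The groups overlapped, and the 95% interval of the log2 fold change ran from -0.21 to 0.07 (limma adjusted p = 0.425). By the exon positions deposited with the values, REL shares 5702 exon bases, 50.7% of its length, with RP11-373L24.1 on the same strand. How the authors assigned reads there is not given in the sources used here.

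Among the inhibitors, NFKBIE lies on chromosome 6 (44258166 to 44265788, minus strand). IkB epsilon binds dimers of RelA and c-Rel and is itself induced by NF-kB, in a later phase than IkB alpha. The gene had 5.58, 6.69 and 6.08 RPKM in mimics libraries, against 9.64, 8.62 and 8.15 RPKM in mimics-NC libraries, from 504 to 1179 reads per library. The highest mimics library lay below the lowest mimics-NC library. NFKBIE averaged 6.12 ± 0.557 RPKM with the mimics and 8.80 ± 0.764 RPKM with mimics-NC (SD, n = 3 each), a log2 fold change of -0.49 (SE 0.08, 95% interval -0.68 to -0.30, limma adjusted p = 0.00666). The call held without the library tagged Huh8 (log2 fold change -0.49, limma adjusted p = 0.0267) and without each of the other 5 libraries (adjusted p 0.0102 to 0.0254). Of the 1296 genes that fell in the whole table, 212 had a lower log2 fold change than NFKBIE. By the exon positions deposited with the values, NFKBIE shares no exon bases with another gene. Its 3′ UTR holds the 7mer-m8 site shown before.

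NFKBIA encodes IkB alpha, the rapidly induced inhibitor that closes the main feedback loop (chromosome 14, 35401511 to 35404749, minus strand). It had 13.0, 14.6 and 13.2 RPKM in mimics libraries and 14.1, 14.5 and 13.4 RPKM in mimics-NC libraries. The highest value of all belonged to mimics replicate 2 and the 2 lowest to mimics replicates 1 and 3, so the groups overlapped (log2 fold change -0.04, 95% interval -0.17 to 0.09, limma adjusted p = 0.636).

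NFKBIB encodes IkB beta (chromosome 19, 38899700 to 38908893, plus strand). Its level was 12.3, 12.4 and 11.0 RPKM in mimics libraries and 10.1, 11.2 and 10.2 RPKM in mimics-NC libraries. Mimics replicates 1 and 2 lay above every mimics-NC library, and mimics replicate 3 lay below mimics-NC replicate 2. The log2 fold change was 0.17 (SE 0.06, 95% interval 0.02 to 0.32) and the limma adjusted p was 0.0995, so NFKBIB did not pass; without 1 library the adjusted p ranged from 0.0523 to 0.231. NFKBIB shares 40 bases, 1.72% of its length, with SIRT2 on the opposite strand.

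TNFAIP3 encodes A20, a ubiquitin-editing enzyme that shuts off signalling upstream of the IkB kinase (chromosome 6, 137867188 to 137883312, plus strand). It had 6.37, 6.65 and 6.75 RPKM in mimics libraries and 6.98, 6.97 and 6.97 RPKM in mimics-NC libraries. Every mimics library was lower than every mimics-NC library, and the SD of the mimics-NC libraries was 0.00781 RPKM. The log2 fold change was -0.08 (SE 0.04, 95% interval -0.17 to 0.02, limma adjusted p = 0.211), which did not pass.

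IKBKB encodes IKK beta, the kinase that phosphorylates IkB alpha in the canonical pathway (chromosome 8, 42271302 to 42332653, plus strand). It had 4.50, 4.46 and 4.39 RPKM in mimics libraries and 4.38, 4.02 and 4.34 RPKM in mimics-NC libraries. The lowest mimics library, 4.391 RPKM, stood just above the highest mimics-NC library, 4.384 RPKM. The log2 fold change was 0.06 (95% interval -0.05 to 0.17, limma adjusted p = 0.408).

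**Figure D2:**
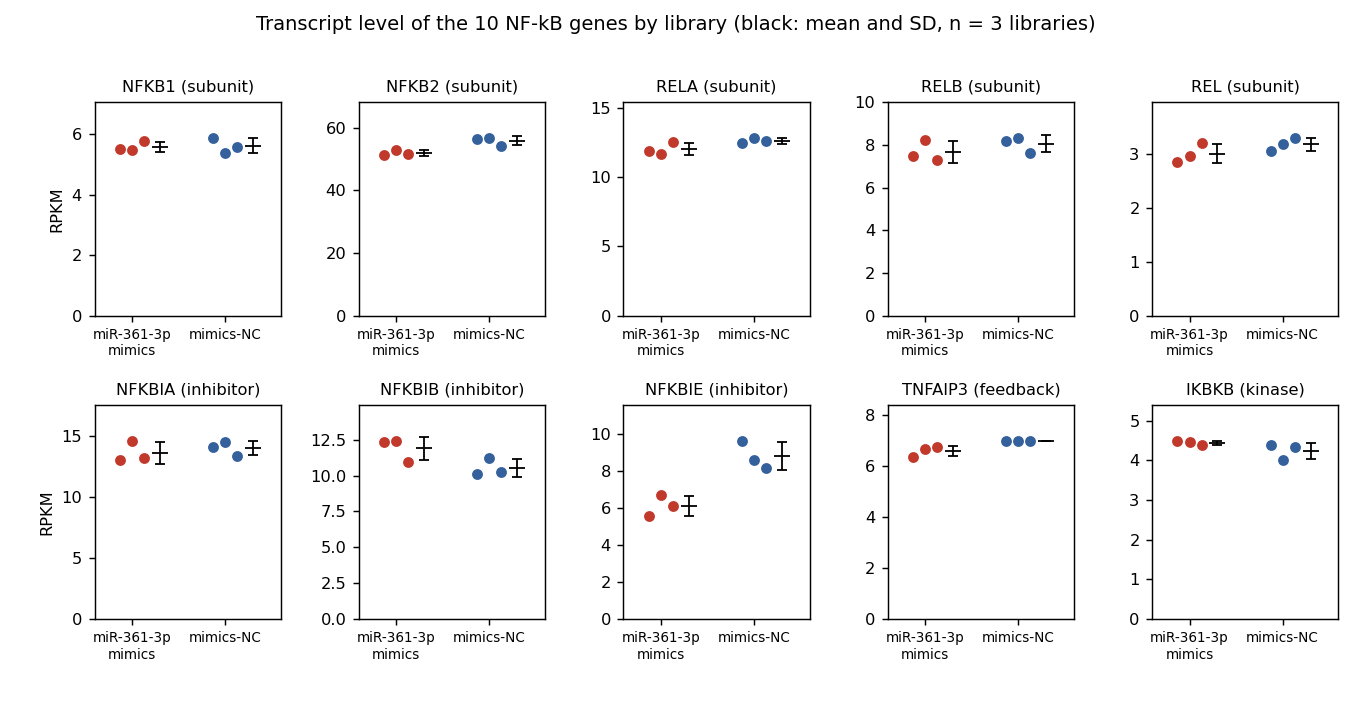
RPKM of each of the 10 members in every library, with the mean and SD of 3 libraries per group in black; each panel starts at 0 and has its own scale. NFKBIE, NFKB2 and TNFAIP3 have all 3 mimics libraries below all 3 mimics-NC libraries, IKBKB has them above, and the other 6 overlap.

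In all, 8 members had a lower mean and 2 a higher mean log2 value with the mimics. The split was the same under all 3 scalings, and it was 7 and 3 without mimics replicate 1, without mimics replicate 2 and without mimics-NC replicate 1.

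Ranked by the mean of all 6 libraries in RPKM, the order was NFKB2, NFKBIA, RELA, NFKBIB, RELB, NFKBIE, TNFAIP3, NFKB1, IKBKB and REL. NFKB2, at 54.0 RPKM, stood far above NFKBIA at 13.8 RPKM, and REL was lowest at 3.09 RPKM. This order depends on the gene lengths: REL, with 11255 bases, had 1125 to 1896 reads per library, and NFKBIE, with 2581 bases, 504 to 1179. Most neighbours were separate in both groups, and 3 pairs were not. RELA was above NFKBIB in 1 of 3 mimics libraries and in 3 of 3 mimics-NC libraries. RELB was above NFKBIE in 3 of 3 mimics libraries and in 0 of 3 mimics-NC libraries, with overlapping ranges in mimics-NC. NFKBIE was above TNFAIP3 in 1 of 3 mimics libraries, with overlapping ranges, and in 3 of 3 mimics-NC libraries.

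The subunit pool had a similar makeup in both groups, while the shares of NFKBIE and NFKBIB in the inhibitor pool did not overlap between groups. The 5 subunits summed to 79.0, 81.3 and 80.4 RPKM in mimics libraries, against 86.2, 86.7 and 83.4 RPKM in mimics-NC libraries. NFKB2 made up 64.8 ± 0.506% of that sum with the mimics and 65.5 ± 0.298% with mimics-NC, and RELA 15.0 ± 0.628% and 14.8 ± 0.324% (mimics and mimics-NC, SD, n = 3 each). The 3 inhibitors summed to 31.6 ± 1.85 RPKM with the mimics and 33.3 ± 1.38 RPKM with mimics-NC.

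NFKBIE held 18.0%, 19.8% and 20.1% of the inhibitor sum in mimics libraries, against 28.5%, 25.1% and 25.7% in mimics-NC libraries. NFKBIB held 39.9%, 36.9% and 36.3% in mimics libraries, against 29.8%, 32.7% and 32.3% in mimics-NC libraries. Neither share overlapped between the groups. The 3 shares are parts of 1 sum, so a lower NFKBIE share by itself raises the shares of the others. In RPKM the values of NFKBIB did overlap between the groups. NFKBIA held 43.0 ± 0.789% with the mimics and 42.0 ± 0.280% with mimics-NC. The level of NFKBIE was 51.5 ± 5.52% of that of NFKBIB with the mimics and 84.0 ± 10.2% with mimics-NC (SD, n = 3 each). The inhibitor sum was 39.4 ± 1.95% of the subunit sum with the mimics and 39.0 ± 0.818% with mimics-NC. These shares are computed from the levels tested above and were not tested again.

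**Figure D3:**
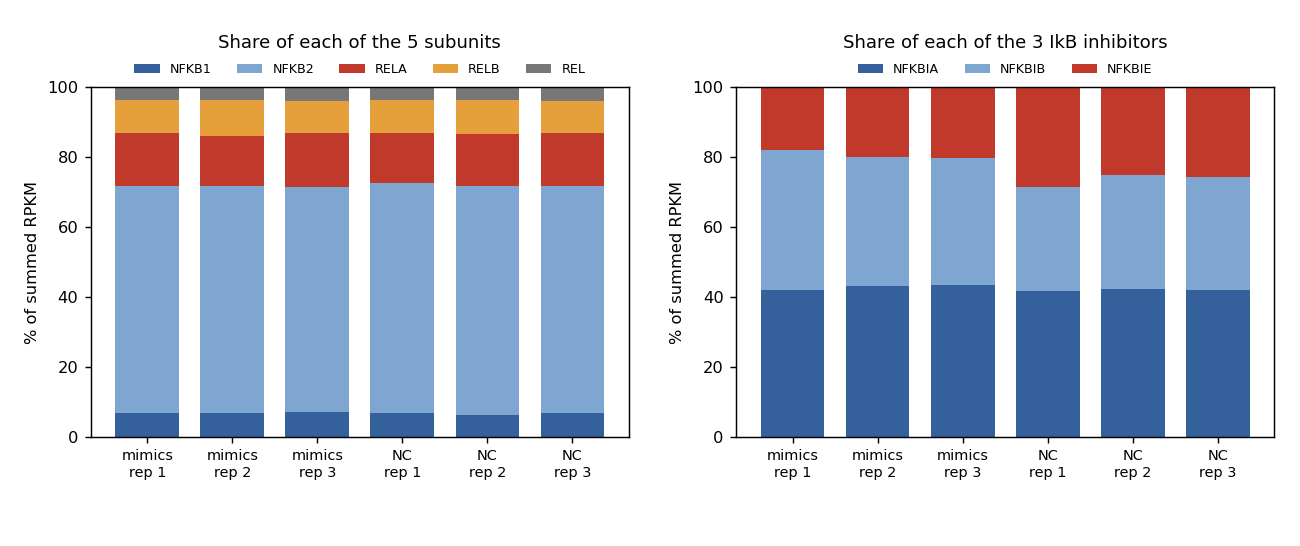
Share of each subunit in the summed RPKM of the 5 subunits (left) and of each inhibitor in the summed RPKM of the 3 inhibitors (right), 1 bar per library with the miR-361-3p mimics libraries at the left of each panel. The NFKBIE share is 18.0% to 20.1% in mimics libraries and 25.1% to 28.5% in mimics-NC libraries, while NFKB2 takes 64.2% to 65.7% of the subunits in every library.

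Several of these genes are known targets of NF-kB themselves. RefSeq promoters, from 250 bases before to 50 bases after a start site, were available for 7 members, and 6 of the 7 held the kB motif on either strand in at least 1 promoter. The motif was in 11.3% of all 35116 promoters of the same length and in at least 1 promoter of 16.5% of the 8067 tested genes that have one. Examples are shown because NF-kB dimers are known to act through this motif; each is written 5′ to 3′ on the strand of its gene, with the motif in capitals, and "opposite strand" means that the motif reads on the other strand. Matches that overlap each other by all but 1 base were found in REL, NFKB2 and NFKBIB, and 1 of them is shown.
REL, chr2:60881527-60881536, 47 bases before the start site: tcagccgcGGGAAATTCCcctcccgc
NFKB1, chr4:102501310-102501319, 49 bases before: acgtcagtGGGAATTTCCagccagga
TNFAIP3, chr6:137867192-137867201, 67 bases before, opposite strand: gtgactttGGAAAGTCCCgtggaaat
TNFAIP3, chr6:137867204-137867213, 55 bases before, opposite strand: agtcccgtGGAAATCCCCgggcctac
NFKB2, chr10:102394471-102394480, 107 bases before: aacgtcatGGGAATTCCCccctccgg
NFKB2, chr10:102395684-102395693, 21 bases before: gtattttcGGGACTTTCCtaagctgc
NFKBIA, chr14:35404821-35404830, 81 bases before, opposite strand: actggcttGGAAATTCCCcgagcctg
NFKBIB, chr19:38899941-38899950, 28 bases before: gcgtggtgGGGAATTTCCcgcagggc

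The motif letters were not in the 2 RELA promoters. The 6 members with the motif had log2 fold changes between -0.11 (NFKB2) and 0.17 (NFKBIB), and none of them passed the test. RELB, NFKBIE and IKBKB have no promoter entry in the table used.

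Beyond the members, 6 lists of pathway genes held 98 genes, of which 95 were in the table and 56 were tested. Of these 56, 13 rose and 6 fell, which is 33.9% changed beside 21.5% of all tested genes. The 37 others did not pass. The count was 9 to 12 when any 1 library was left out, when 13.5% to 16.3% of all tested genes changed, and 10 of 56 without the library tagged Huh8. The lists were chosen with earlier results of these data known. Their share of changed genes is therefore not an unbiased comparison with all tested genes. CD40LG, CXCL10 and SELE were not analysed here.

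**Figure D4:**
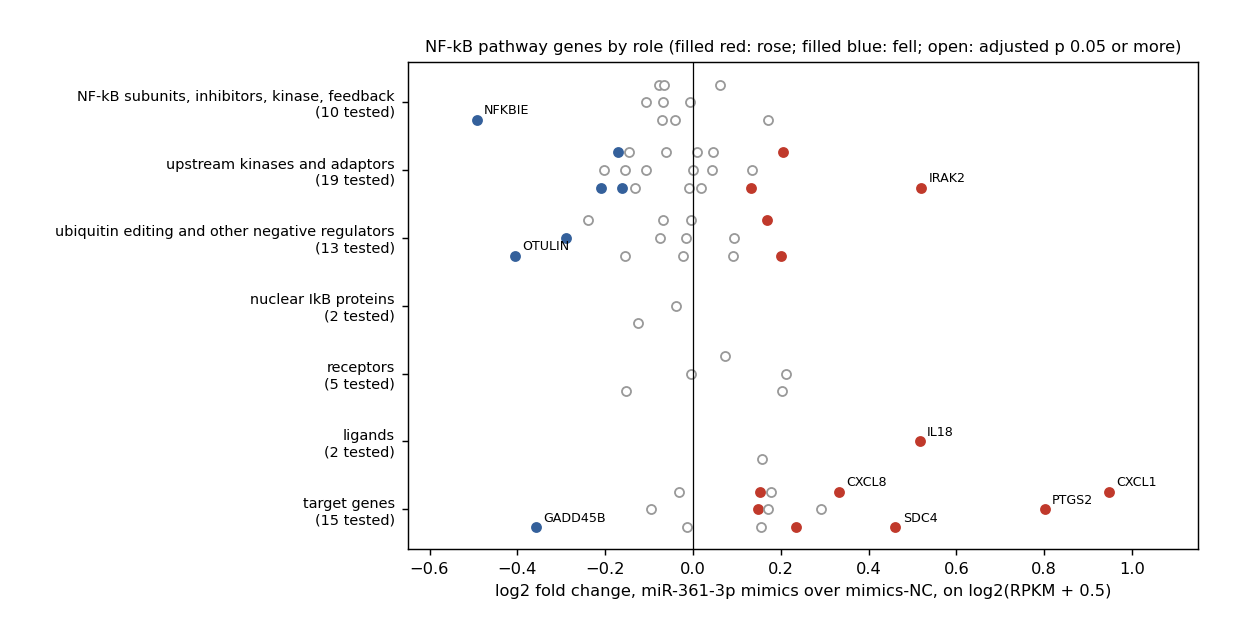
Log2 fold change of every tested gene of the NF-kB members and of the 6 pathway lists, miR-361-3p mimics over mimics-NC; filled red points rose, filled blue points fell and open points did not pass. The target genes reach 0.95 for CXCL1, and the lowest value of all lists is -0.49 for NFKBIE.

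Of 12 receptors 5 were tested and 0 rose or fell by limma, also after median-of-ratios scaling and quantile normalization. IL1R1, the signalling receptor of interleukin-1, averaged 6.46 ± 0.0574 RPKM with the mimics and 6.12 ± 0.151 RPKM with mimics-NC (log2 fold change 0.07, limma adjusted p = 0.232). TNFRSF1A, the main receptor of TNF, averaged 4.77 ± 0.409 RPKM with the mimics and 4.77 ± 0.1104 RPKM with mimics-NC (limma adjusted p = 0.975). At an unadjusted p under 0.05 only IL1RAP, the shared chain of the interleukin-1 receptor, passed (1.14 ± 0.0682 RPKM with the mimics and 0.927 ± 0.0273 RPKM with mimics-NC, unadjusted p = 0.0287). With voom IL1RAP rose, and without mimics replicate 1 TNFRSF12A, the receptor of TWEAK, rose.

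Of 12 ligands 2 were above the filter, and IL18 rose. IL18, a cytokine of the interleukin-1 family, had 20.0, 20.1 and 19.8 RPKM in mimics libraries, against 14.0, 13.6 and 13.8 RPKM in mimics-NC libraries. The groups lay far apart relative to their spread, with a log2 fold change of 0.52 (SE 0.03, limma adjusted p = 0.00029). TNFSF10, which encodes TRAIL, overlapped between groups.

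Of 19 tested upstream kinases and adaptors, 3 rose and 3 fell, which is 31.6% changed beside 21.5% of all tested genes. IRAK2, a member of the IRAK family that carries interleukin-1 and Toll-like receptor signals to TRAF6, had 6.11, 6.26 and 6.28 RPKM in mimics libraries, against 4.31, 4.36 and 3.90 RPKM in mimics-NC libraries. It rose with a log2 fold change of 0.52 (SE 0.05, limma adjusted p = 0.00106), and was the only gene of this list whose call held in all 6 fits without 1 library.

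MAP3K7, which encodes the kinase TAK1 that activates the IkB kinase, averaged 7.95 ± 0.427 RPKM with the mimics and 9.26 ± 0.161 RPKM with mimics-NC. It fell by 0.21 on the log2 scale (limma adjusted p = 0.0224), and of the fits without 1 library only that without mimics replicate 2 kept the call (adjusted p 0.026 to 0.0681). IKBKG, the regulatory subunit NEMO of the IkB kinase, averaged 24.4 ± 0.945 RPKM with the mimics and 21.1 ± 0.784 RPKM with mimics-NC. It rose by 0.20 on the log2 scale (limma adjusted p = 0.0185), and lost the call without mimics replicate 2, mimics-NC replicate 2 or mimics-NC replicate 3. IKBKG has a near-identical pseudogene copy, so its value is uncertain.

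The remaining calls of this list, chosen after their values were seen, were smaller. CHUK, which encodes IKK alpha, averaged 8.27 ± 0.283 RPKM with the mimics and 9.31 ± 0.284 RPKM with mimics-NC and fell (log2 fold change -0.16, limma adjusted p = 0.0386). IRAK1 fell (log2 fold change -0.17, limma adjusted p = 0.0454) and TANK rose (log2 fold change 0.13, limma adjusted p = 0.0431). Without 1 library CHUK and TANK kept the call in 0 of 6 fits and IRAK1 in 1, that without mimics-NC replicate 3. TRAF2, TRAF3 and BIRC3 had groups that did not overlap and adjusted p-values of 0.054, 0.0707 and 0.0862 by limma. Groups did not overlap for 9 of the 19 tested genes of this list, against 41.4% of all tested genes.

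Of 13 tested ubiquitin editors and other negative regulators, 2 rose and 2 fell, which is 30.8% changed beside 21.5% of all tested genes. OTULIN removes linear ubiquitin chains from the signalling complex. It had 3.94, 3.77 and 3.72 RPKM in mimics libraries, against 5.32, 5.20 and 5.10 RPKM in mimics-NC libraries, and fell by 0.41 on the log2 scale (SE 0.04, limma adjusted p = 0.00142, called in 6 of 6 fits without 1 library). CYLD, which removes linear and K63-linked chains, averaged 1.12 ± 0.0627 RPKM with the mimics and 1.48 ± 0.0103 RPKM with mimics-NC and fell by 0.29 (limma adjusted p = 0.0242).

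RBCK1, which encodes HOIL-1 of the complex that builds linear chains, averaged 2.69 ± 0.1104 RPKM with the mimics and 2.27 ± 0.0977 RPKM with mimics-NC and rose (log2 fold change 0.20, limma adjusted p = 0.0459). CYLD kept its call in 1 of 6 fits without 1 library, that without mimics replicate 2, and RBCK1 in 0 of 6. NKIRAS1, chosen after its values were seen, rose (log2 fold change 0.17, limma adjusted p = 0.0213, 2 of 6 fits) and shares 13.0% of its length with RPL15 on the opposite strand. TNIP2, which encodes a protein that binds A20 and was also chosen after its values were seen, averaged 24.5 ± 1.75 RPKM with the mimics and 29.01 ± 2.21 RPKM with mimics-NC. Its groups did not overlap, as for 7 of the 13 tested genes of this list and for 41.4% of all tested genes. It just missed the threshold (log2 fold change -0.24, limma adjusted p = 0.0507). It passed after median-of-ratios scaling, after quantile normalization, with voom and in 2 of 6 fits without 1 library, those without mimics replicate 2 and without mimics-NC replicate 3. The median log2 fold change of the list was -0.02.

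Of the 3 nuclear IkB proteins 2 were tested and neither rose nor fell by limma, and 0 passed at an unadjusted p under 0.05 or with voom. BCL3, a coactivator of p50 and p52 dimers, averaged 3.33 ± 0.2004 RPKM with the mimics and 3.67 ± 0.1396 RPKM with mimics-NC (log2 fold change -0.13, limma adjusted p = 0.168). NFKBIZ averaged 2.47 ± 0.0780 RPKM with the mimics and 2.56 ± 0.216 RPKM with mimics-NC (log2 fold change -0.04, limma adjusted p = 0.712).

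Of the 15 tested target genes 7 rose and 1 fell, which is 53.3% changed. Of all tested genes 11.7% rose and 9.85% fell. This list, too, was chosen with earlier results of these data known. The median log2 fold change of the 15 was 0.17, against 0.01 for all tested genes, and 11 had a positive value. Of the 33 target genes listed 31 were in the table, and those averaging under 1 RPKM are not among the 15. Without that filter 18 of the 31 were higher and 13 lower with the mimics, with a median log2 fold change of 0.02. CXCL1, which encodes a neutrophil chemokine, had 7.09, 7.24 and 7.16 RPKM in mimics libraries, against 3.49, 3.39 and 3.53 RPKM in mimics-NC libraries. Its log2 fold change was 0.95 (SE 0.04, limma adjusted p = 9.52e-05). CXCL1 has close copies in CXCL2 and CXCL3, and how reads that match several of them were counted is not given in the sources used here.

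PTGS2, the inducible cyclooxygenase, had 4.19, 3.97 and 3.82 RPKM in mimics libraries, against 1.98, 2.18 and 2.07 RPKM in mimics-NC libraries (log2 fold change 0.80, limma adjusted p = 0.000323). SDC4, the heparan sulfate proteoglycan syndecan 4, had 14.6, 14.0 and 14.8 RPKM in mimics libraries, against 10.6, 10.8 and 9.70 RPKM in mimics-NC libraries (log2 fold change 0.46, limma adjusted p = 0.00133). The groups of these 3 genes lay well apart.

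The other changed target genes are given after their values were seen. CXCL8, another neutrophil chemokine, averaged 28.2 ± 0.620 RPKM with the mimics and 22.4 ± 1.65 RPKM with mimics-NC and rose (log2 fold change 0.33, limma adjusted p = 0.00671). VCAM1, an adhesion molecule, rose by 0.23, the mitochondrial superoxide dismutase SOD2 by 0.15 and the stress gene IER3 by 0.15 on the log2 scale (limma adjusted p = 0.021, 0.0275 and 0.0306). Without 1 library VCAM1 kept the call in 2 of 6 fits and SOD2 and IER3 in 1 each. IER3 shares 26.5% of its length and SOD2 9.74% with a gene on the opposite strand. GADD45B, a stress gene that restrains JNK signalling downstream of NF-kB, averaged 11.7 ± 0.401 RPKM with the mimics and 15.2 ± 0.390 RPKM with mimics-NC and fell by 0.36 (limma adjusted p = 0.00159).

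CXCL1, CXCL8, PTGS2, SDC4 and GADD45B passed under every alternative and without each library. The number of target genes that rose was 5 in 5 of the 6 fits without 1 library and 4 without mimics-NC replicate 3, and 9 with voom. The number of all tested genes that rose moved in the same directions, from 1539 to between 895 and 1193 without 1 library and to 2064 with voom. Other well-known targets did not pass: CCL20, a chemokine for lymphocytes, averaged 24.6 ± 1.90 RPKM with the mimics and 24.8 ± 1.48 RPKM with mimics-NC (limma adjusted p = 0.909). The adhesion molecule ICAM1 averaged 21.2 ± 0.478 RPKM with the mimics and 22.7 ± 1.28 RPKM with mimics-NC (limma adjusted p = 0.195). NFKBIA and TNFAIP3, which are targets as well as members, did not pass either.

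**Figure D5:**
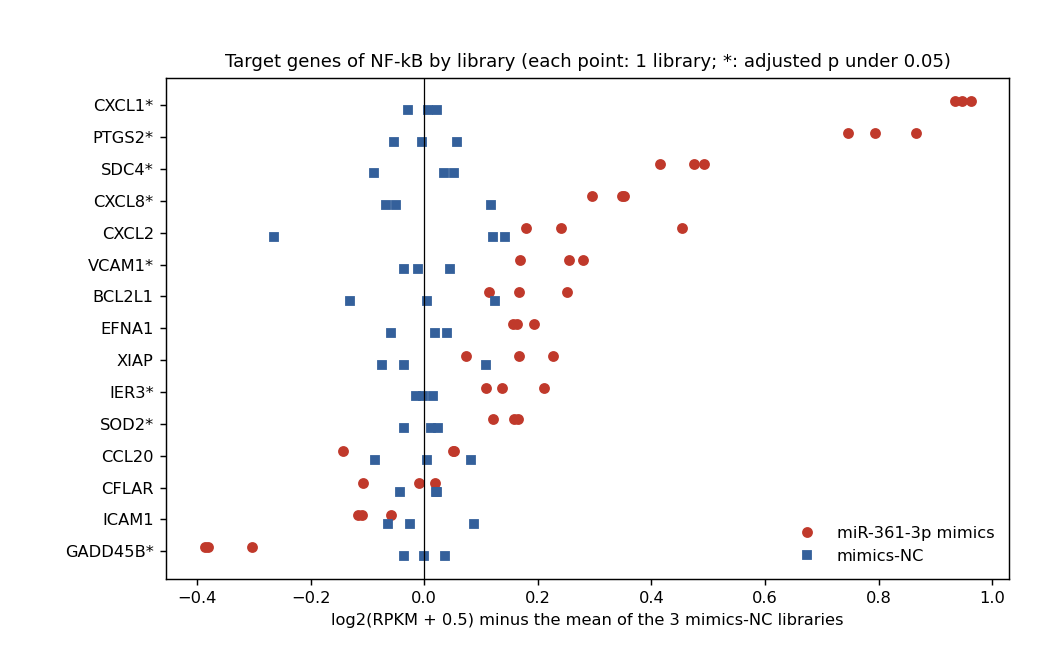
Log2(RPKM + 0.5) of the 15 tested target genes in each library, minus the mean of the 3 mimics-NC libraries; circles are miR-361-3p mimics libraries, squares mimics-NC libraries, and an asterisk marks an adjusted p under 0.05. CXCL1 and PTGS2 lie highest in the 3 mimics libraries, GADD45B lies below 0 in all 3, and CCL20, CFLAR and ICAM1 overlap between groups.

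Of the 19 changed genes of the lists, 3 held an 8mer or 7mer site of miR-361-3p in the 3′ UTR, against 23.7% of the tested genes with a 3′ UTR. IRAK1, which fell, held a 7mer-m8, while SDC4 and IER3, which rose, held 7mer-A1 sites. OTULIN, CYLD, MAP3K7, CHUK and GADD45B, which fell, held no 8mer or 7mer site in the transcripts used.

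NFKBIE was also set beside all tested genes by the distance between log2 profiles over the 6 libraries, each profile taken relative to its mimics-NC mean. The 3 nearest were DLL4, a Notch ligand, at a root mean square distance of 0.0436, IQCC at 0.0452 and the mitotic kinase PLK1 at 0.0482. DLL4 averaged 3.11 ± 0.147 RPKM with the mimics and 4.50 ± 0.438 RPKM with mimics-NC. IQCC averaged 2.65 ± 0.209 RPKM with the mimics and 3.88 ± 0.157 RPKM with mimics-NC. PLK1 averaged 7.11 ± 0.903 RPKM with the mimics and 10.5 ± 1.06 RPKM with mimics-NC. In all 3, as in NFKBIE, mimics replicate 1 was the lowest library and mimics-NC replicate 1 the highest. The 3 genes were picked for profiles close to that of NFKBIE, so this likeness follows from the choice.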

How the data were processed

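RNA of 6 Huh7 samples was sequenced from stranded mRNA libraries, per the labels' protocols. The authors deposited 1 table of RPKM values for 33707 genes on GRCh38, with each gene's length. The submitters' processing notes name edgeR 3.12.1, Trimmomatic 0.36 and featureCounts from Subread 1.5.1. No aligner, annotation release or strand setting is given in the sources used here. Overlapping genes may therefore share reads. RPKM times length gave whole reads for 100% of values (within 0.01).

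Values were taken as log2(RPKM + 0.5), which draws fold changes of low genes toward 0. The 13158 genes averaging 1 RPKM or more were fitted with limma 3.58.1 (R 4.3.3, empirical Bayes with a trend), two-sided, with Benjamini-Hochberg adjustment over all of them. Alternatives were pseudocounts of 0.1 and 1, no filter, median-of-ratios scaling, quantile normalization, voom on recovered reads, a replicate block and each library left out.

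Named were all members, up to 3 changed genes per list with the largest log2 fold change in either direction (or the 2 most abundant), and the 3 nearest profiles to the most changed member. Members and lists were chosen with earlier results of these data known. Sites were searched in GENCODE 29 transcripts and RefSeq promoters.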

Additional observations from a re-analysis of the deposited data

How the results depend on the processing

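The number of changed members was 1 under every alternative except median-of-ratios scaling and voom, where it was 2, NFKB2 joining NFKBIE. Over the 6 pathway lists the number of changed genes was 19; it was 27 with voom, 21 with quantile normalization, 20 with median-of-ratios scaling, 11 without the filter, 10 with a replicate block and 9 to 12 when 1 library was left out. Over all genes 2835 changed, 1716 without the filter, when 33707 genes were tested, 3821 with voom, 1976 with the replicate block and 1780 to 2150 without 1 library. Fits without 1 library rest on fewer samples. For the block, deviations of same-numbered libraries correlated with r of -0.0524, -0.0159 and 0.0235. No library correlated best with its own number, so the numbers were not taken as pairs. Of 312 fold changes of members and named genes under the alternatives, 285 kept their side of the threshold, 25 (MAP3K7, IKBKG, CYLD, RBCK1) lost the call and 2 (NFKB2) gained it; 7 values, all of genes not called, changed sign. Median-of-ratios scaling moved the median of all genes by -0.01. Over all genes, replicate libraries differed by more than counting error (chi-square over its degrees of freedom 5.02 to 12.4); this was not measured at the depth of NFKBIE, 504 to 1179 reads per library.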

Other observations

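Many upstream genes of the pathway lay below 1 RPKM and were not tested. The Toll-like receptor genes TLR2, TLR3, TLR4 and TLR5 had 0 to 6 reads per library. TNF was listed at 0 in the 3 mimics libraries and averaged 0.0167 RPKM with mimics-NC, from 4 reads in 1 library. MYD88, the adaptor of Toll-like and interleukin-1 receptors, averaged 0.137 RPKM with the mimics and 0.128 RPKM with mimics-NC. LTBR, a receptor that can open the non-canonical pathway, averaged 0.405 RPKM with the mimics and 0.362 RPKM with mimics-NC. NFKB2 averaged 52.0 RPKM with the mimics and 56.0 RPKM with mimics-NC. LTBR is not the only receptor listed: CD40 averaged 3.67 RPKM with the mimics and 4.11 RPKM with mimics-NC. For TNFRSF12A these means were 4.61 RPKM and 3.90 RPKM. The cytokine IL6 averaged 0.0688 RPKM with the mimics and 0.106 RPKM with mimics-NC.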
